A study of Homo sapiens with 14 samples.

Results

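The RecQ helicases WRN, BLM, RECQL, RECQL4 and RECQL5 were taken by gene symbol from the guide tables of genome-wide CRISPR screens in 2 human colorectal carcinoma lines, RKO and SW620. The knockout tables hold 4 guides for each of the 5 genes, 20 of 77441 guides and 5 of 19114 gene symbols. The activation tables hold 3 guides for each of 4 of them, 12 of 56762 guides and 4 of 18886 symbols, and RECQL in the activation screens was not analysed here. WRN and RECQL4 lie on chromosome 8, BLM on chromosome 15, RECQL on chromosome 12 and RECQL5 on chromosome 17.

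RecQ helicases unwind DNA structures that form when replication forks stall or broken DNA is repaired. WRN, the Werner syndrome helicase, also carries an exonuclease, and BLM, the Bloom syndrome helicase, works with TOP3A, RMI1 and RMI2 to take apart linked DNA molecules. RECQL helps stalled forks restart, RECQL4 takes part in the start of replication and RECQL5 acts on recombination and at transcribing RNA polymerase II. Cells with microsatellite instability, which have lost DNA mismatch repair, are known to need WRN. RKO is such a line, and SW620 is microsatellite stable.

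The question of the study was which genes alter the response to oxaliplatin, a platinum drug that crosslinks DNA. In the knockout screens, cells of both lines expressed Cas9 and carried the Brunello library. In the activation screens they expressed dCas9-VP64, a cutting-dead Cas9 joined to a transcriptional activator, and carried the Calabrese library. Each of the 4 screens was sampled at day 0 and at day 20 without drug. RKO was also sampled at day 20 under 1.9 µM oxaliplatin, and SW620 under 0.38 and 0.5 µM. These 14 conditions are represented by 1 library each, so no difference could be set against a spread between cultures and no p-value is given. Guides against a gene are separate perturbations read in the same libraries, and are not replicates of a condition.

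Library totals ran from 3647823 counts in untreated SW620 activation to 69526489 counts in SW620 knockout at day 0. The share of counts taken by the most abundant 1% of guides was between 2.43% and 3.88% at day 20 without drug. It reached 31.5% at 0.5 µM in SW620 knockout, 41.4% in drug-treated RKO knockout and 52.8% in drug-treated RKO activation. Counts were scaled by the median ratio, and 5 was added to each scaled count before a guide's log2 fold was computed. A gene's value is the median of its guides' folds, and a gene was called lower at a median of -1 or below and higher at 1 or above. As a check of the lines, knockout of BRAF, the mutant kinase gene of RKO, gave medians of -1.14 in RKO and 0.42 in SW620 without drug. CTNNB1, which encodes the beta-catenin that drives APC-mutant lines such as SW620, gave 0.36 in RKO and -0.83 in SW620.

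**Figure D1:**
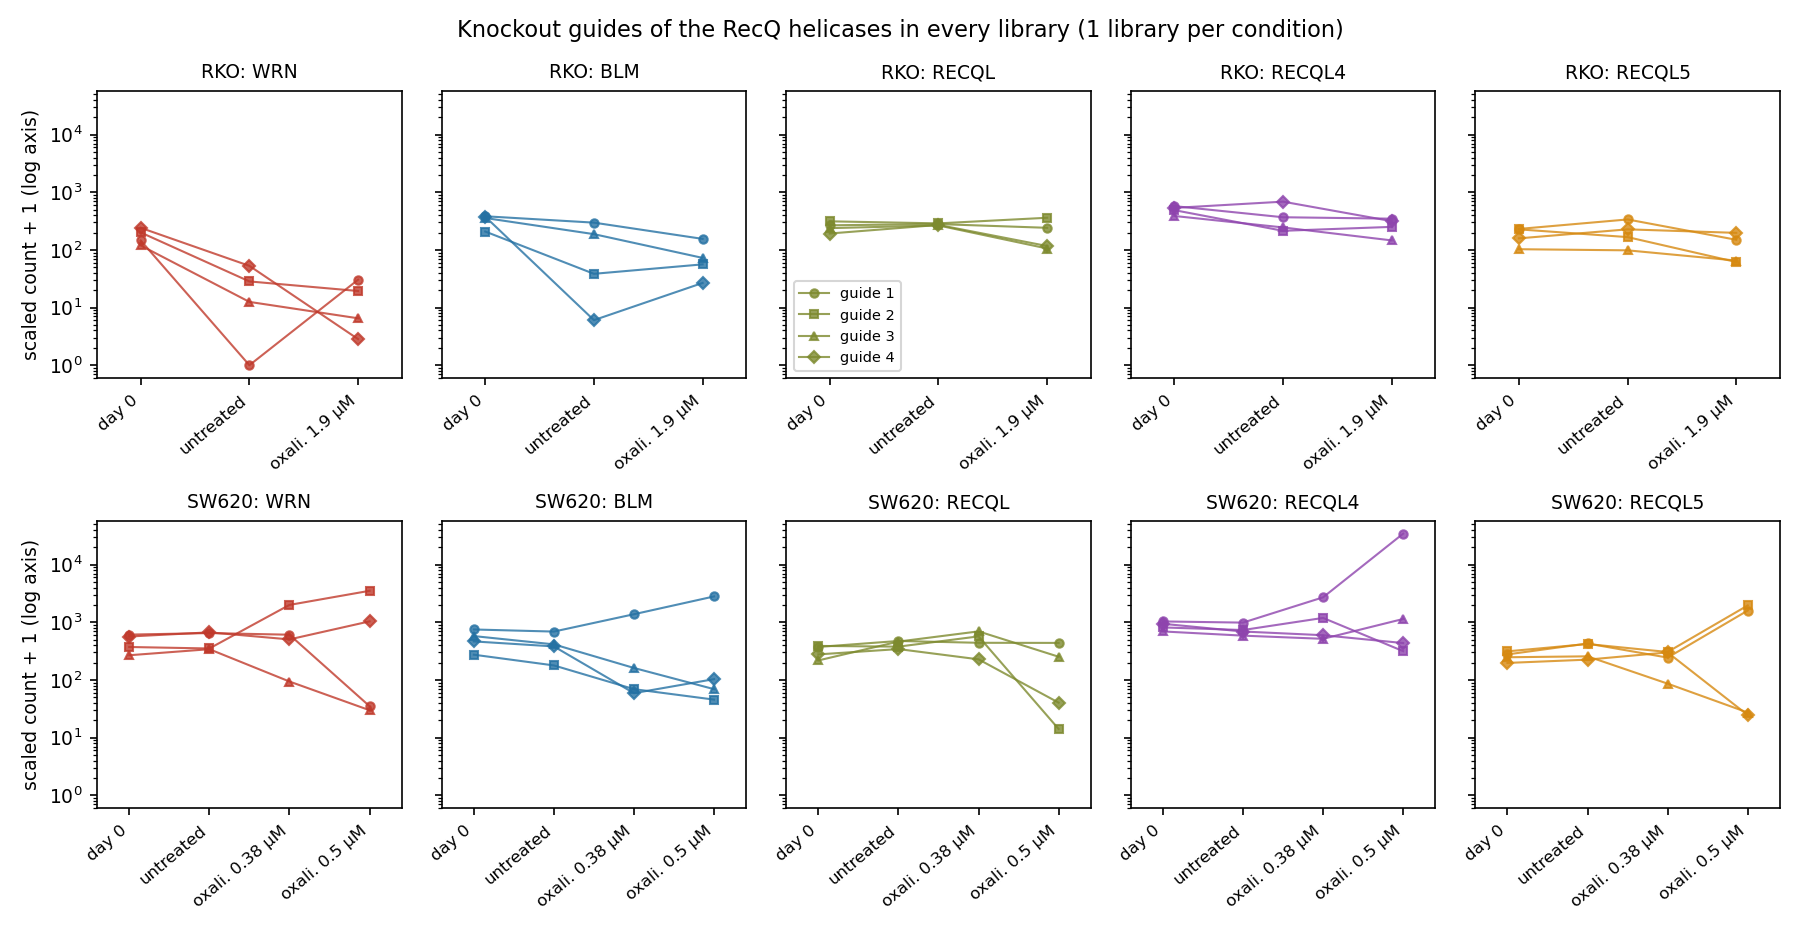
Scaled counts plus 1 (log axis) of the 4 knockout guides of each RecQ gene in each RKO library (top) and SW620 library (bottom), 1 library per condition, with lines joining values of the same guide. In RKO the WRN guides ran from 118 to 241 at day 0 and from 0 to 51.9 at day 20 without drug, while in SW620 they ran from 268 to 612 and from 341 to 669.

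Without drug, WRN guides were lost from RKO and retained in SW620. In RKO the counts of WRN guides 1 to 4, numbered in the order of the tables, were 192, 265, 157 and 319 at day 0. At day 20 they were 0, 38, 16 and 72. All 4 guides were lower at day 20, and the guide without counts was at least 67.0-fold lower with 3 counts taken as the floor of the day 20 library. The other WRN guides had log2 folds of -2.66, -2.90 and -2.11. The median over the 4 guides was -2.78, and it is the mean of 2 guides that had counts, so the guide at 0 does not set its value. Summed over guides, WRN had 0.129 times its day 0 level (95% exact binomial interval 0.106 to 0.156, counting error only). Non-targeting guides, which cut no gene, had log2 folds between 0.00 and 0.90 in their central 90% in the same pair of libraries.

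In SW620 the WRN guides had 1120, 682, 490 and 1038 counts at day 0. After 20 days without drug they had 797, 430, 418 and 820 counts in a library of lower depth. On the scaled counts these are log2 folds of 0.09, -0.08, 0.34 and 0.24, all within the central 90% of non-targeting guides except the second, which lay just under its lower end of -0.07. The SW620 median was 0.16, and the summed guides were at 1.11 times day 0 (1.05 to 1.17, counting error only).

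**Figure D2:**
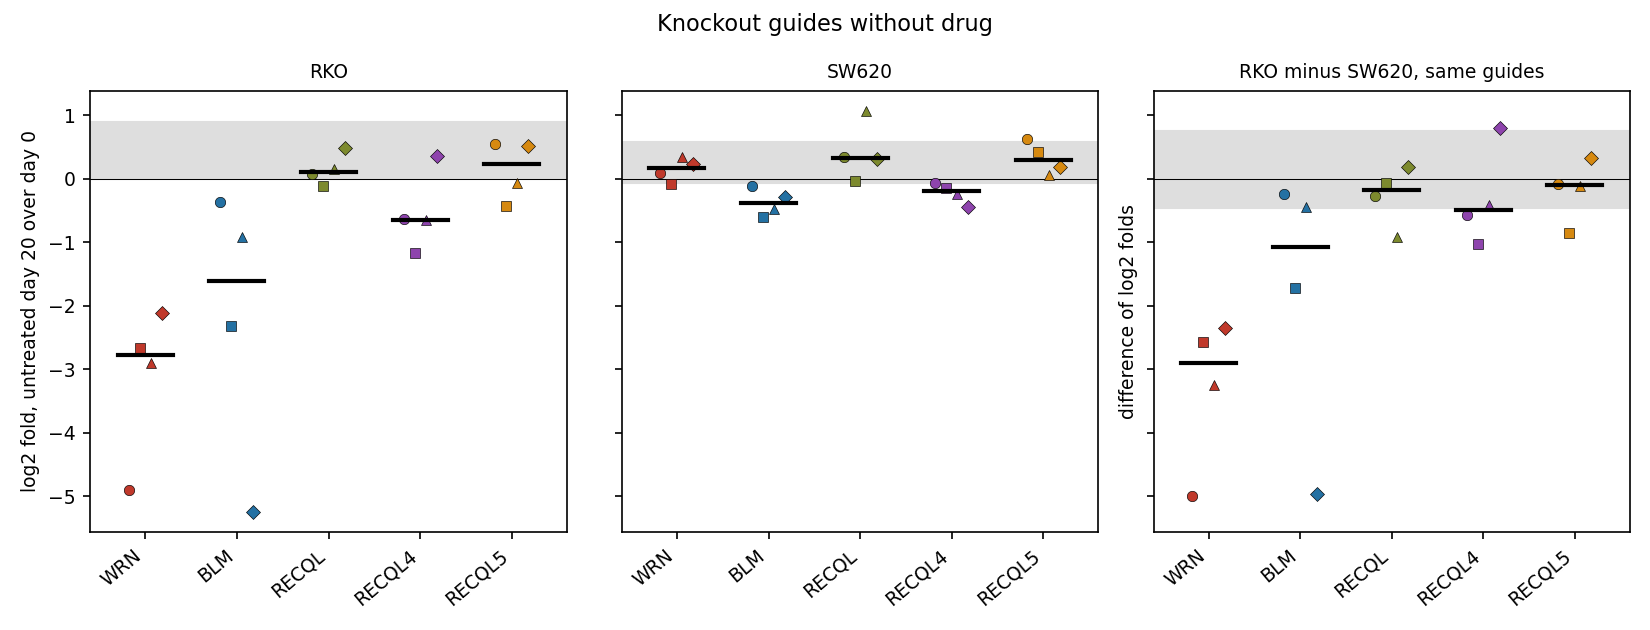
Log2 folds of single knockout guides (symbols) with the median of each gene (black bars), untreated day 20 over day 0, in RKO (left), in SW620 (middle), and the difference RKO minus SW620 guide by guide (right). Grey bands hold the central 90% of non-targeting guides. The 4 WRN guides lie between -4.91 and -2.11 in RKO, between -0.08 and 0.34 in SW620, and between -4.99 and -2.35 in the difference.

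Both lines carried the same knockout guides, so the SW620 fold of each guide could be taken from its RKO fold. For WRN the differences were -4.99, -2.58, -3.24 and -2.35, with a median of -2.91. WRN ranked 510 from the lowest of 19076 genes in this difference, and 150 genes had a highest guide at or below that of WRN. The line difference alone does not set WRN apart from genes most cells need, because such genes were depleted more strongly in RKO than in SW620. Cytosolic ribosomal proteins, needed for all protein synthesis, had a list median of -3.19 in RKO, with 67 of 69 tested genes called lower, and -0.83 in SW620, with 26 of 77 called lower. What separates WRN from them is its level in SW620. Of the 925 other genes as low as WRN or lower in RKO, 29 (3.14%) were at or above WRN in SW620. The SW620 median of all 925 was -0.60. Not being called lower in SW620 was common among such genes: with WRN counted, it held for 781 of 926 (84.3%).

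**Figure D3:**
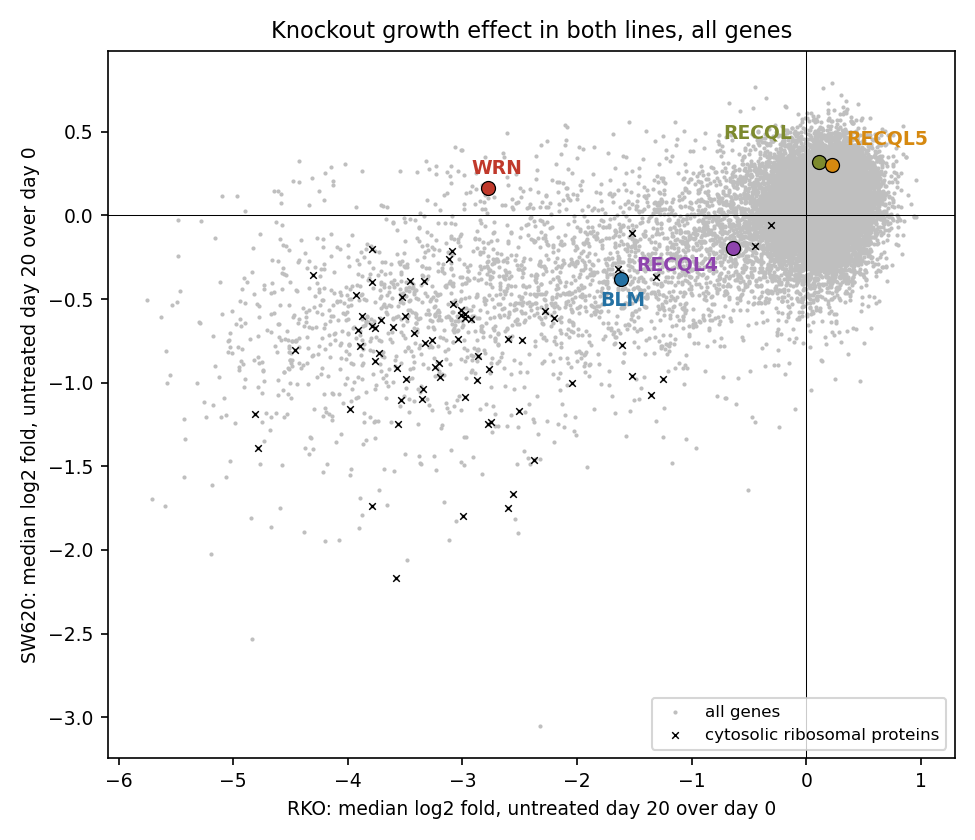
Gene medians of the log2 folds of knockout guides, untreated day 20 over day 0, in RKO (x axis) and SW620 (y axis), with the 5 RecQ genes coloured, cytosolic ribosomal proteins as crosses and all genes in grey. WRN lies at -2.78 and 0.16, above the ribosomal proteins, and BLM lies at -1.62 and -0.38.

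BLM was the other RecQ gene called lower in RKO, with a median of -1.62 from guides that differed widely. Its guides went from 507, 275, 473 and 499 counts at day 0 to 411, 52, 259 and 7 at day 20. The guide folds were -0.36, -2.32, -0.92 and -5.25, so that 2 guides carried the call and the others stayed above -1. In SW620 the same guides had 1375, 501, 1056 and 853 counts at day 0 and 846, 218, 507 and 467 at day 20. All 4 SW620 folds were below 0, at -0.12, -0.61, -0.47 and -0.29, with a median of -0.38. BLM thus held nearly the same position in both lines: 8.64% of genes were lower than BLM in RKO and 8.86% in SW620. For WRN those shares were 4.85% and 74.5%. The guide-wise line difference of BLM was -1.08, with guides from -4.96 to -0.24. With the SW620 folds multiplied by 3.89, the ratio of the median ribosomal protein guide in RKO to that in SW620, it was 0.073, without the guide of the largest fold -0.44, and with a pseudocount of 20 -0.91. BLM was no longer called in any of these.

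RECQL, RECQL4 and RECQL5 were called in neither line without drug. RECQL4 was the lowest of these, with medians of -0.64 in RKO (guides -1.18 to 0.36) and -0.19 in SW620 (guides -0.44 to -0.07). RECQL had medians of 0.11 in RKO and 0.32 in SW620. RECQL5 had medians of 0.22 in RKO and 0.30 in SW620. Their line differences were -0.49 for RECQL4, -0.17 for RECQL and -0.10 for RECQL5, and for each the guides lay on both sides of 0. With the SW620 folds multiplied by the ribosomal ratio, RECQL5 was called lower at -1.07 and RECQL was at -0.97. This scaling lowers genes with SW620 medians above 0, as both had, by its construction. It moved the median line difference of all genes from 0.02 to -0.17. In RKO 2 of 5 RecQ genes were called lower, where 11.6% of all 19077 tested genes were, and 0 higher, against 0%. In SW620 0 of 5 were called, where 1.2% of all tested genes were called lower and 0% higher. In the line difference 2 of 5 were called lower, against 10.3% of all genes, and 0 higher, against 0.126%.

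The WRN guides already stood lower in RKO than in SW620 at day 0, relative to the other guides of each library. At day 0 in RKO, 15.9%, 32.6%, 9.14% and 43.9% of all knockout guides were lower than WRN guides 1 to 4. In SW620 these shares were 71.4%, 42.2%, 22.0% and 67.2%, each higher than for the same guide in RKO. A difference in 1 direction was not confined to WRN. All 4 RECQL4 guides also stood lower in RKO, at 90.8%, 83.8%, 71.7% and 87.9% against 95.4%, 86.5%, 78.4% and 92.6% in SW620. All 4 RECQL guides stood higher in RKO, and guides of BLM and RECQL5 stood on both sides. The log2 folds over day 0 do not include any such difference at day 0, and its part in the line difference was not tested.

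Genes that work beside the RecQ helicases were described from lists of named repair proteins. The counts are read against 11.6% of all genes called lower in RKO and 1.2% in SW620, so that 0 called in SW620 is near the background. In the BLM complex, TOP3A, the topoisomerase that acts with BLM, had -4.21 in RKO and -0.44 in SW620 without drug. RMI1, which holds BLM and TOP3A together, had -2.91 and -0.22, with RKO guides spread from -6.83 to 0.07. RMI2, their further partner, had -0.42 and -0.19. The list thus had 2 of 3 genes called lower in RKO and 0 of 3 in SW620. All 3 subunits of RPA, the protein that coats single-stranded DNA and stimulates WRN and BLM, were called lower in RKO, RPA3 at -3.69, RPA1 at -2.67 and RPA2 at -2.07. In SW620 they had -0.97, -0.43 and -0.73, and 0 of 3 were called.

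Among resection and flap enzymes, 4 of 8 were called lower in RKO and 0 of 8 in SW620. DNA2, a nuclease that cuts the strands WRN and BLM unwind, had -4.30 in RKO and -0.84 in SW620. RAD50 and MRE11A, of the complex that begins resection, had -3.99 and -3.64 in RKO and -0.30 and -0.34 in SW620. FEN1, the flap endonuclease of lagging strand synthesis, had -2.79 and -0.58. EXO1 stayed above the threshold at -0.98 in RKO, and WRNIP1, a WRN-binding ATPase, was at 0.00. Each of the 4 called genes was below 0 in SW620, whereas WRN was at 0.16.

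Of 13 other DNA helicases, 4 were called lower in RKO and 0 in SW620. DHX9 had -4.21 in RKO and -0.67 in SW620, RTEL1, a telomere helicase, -2.15 and -0.86, DDX11 -1.52 and -0.06, and FANCM, the fork remodelling helicase of the Fanconi pathway, -1.35 and -0.46. The list median was -0.06 in RKO, against 0.09 over all genes. Structure-specific nucleases, which cut the joints that BLM takes apart, had 0 of 7 genes called in either line, and the lowest in RKO were SLX4 at -0.9985 and SLX1A at -0.90. SLX1A and SLX1B are near-identical copies whose guides may act on both. Mismatch repair genes also had 0 of 7 called in either line. MLH3, a partner subunit of that pathway, was at 0.27 in RKO and 0.37 in SW620.

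The genes whose knockout pattern was closest to WRN were found from the median log2 folds over day 0 of the 5 day 20 knockout libraries, by Euclidean distance among 19072 genes. The median distance of all genes from WRN was 4.79. ATP6V1H, a subunit of the proton pump of lysosomes, was nearest at 0.716, followed by BAP1, a nuclear deubiquitinase, at 0.766. CBWD1 lay at 0.862, PRIM2, the large subunit of primase, at 0.891 and RPA1 at 0.905. Whether the CBWD1 guides also act on near-identical copies was not checked. PPA2, a mitochondrial pyrophosphatase, GNL2, a nucleolar GTPase, and NGLY1, which removes sugars from misfolded glycoproteins, lay at 1.08, 1.16 and 1.18. Their medians without drug ran from -2.89 for GNL2 to -2.0 for NGLY1 in RKO, and from -0.43 for RPA1 to 0.35 for NGLY1 in SW620. Libraries of a line share their day 0 library, so the 5 values behind each distance are not independent. Treated libraries enter the distance although WRN was poorly measured there, with 30 counts in all in RKO. Over day 0 in SW620, its guides ran from -1.47 to 2.41 at 0.38 µM and from -3.98 to 3.22 at 0.5 µM. The nearest genes are thus matched in part to scatter between WRN guides.

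Under 1.9 µM oxaliplatin too few WRN counts remained in RKO to read an effect of the drug. The WRN guides had 16, 10, 3 and 1 counts in the treated library, against 0, 38, 16 and 72 without drug. Only 2 of 4 guides passed the filter of a mean scaled count of 20, at -0.47 and -3.06, which is under the minimum of 3 guides, and no median was taken. The summed WRN guides were at 0.607 times untreated (0.393 to 0.910, counting error only), from 30 against 126 counts. Set against day 0, the treated library had a WRN median of -3.34 with guides from -5.17 to -2.12, rank 23 from the lowest of 19080 genes. Without drug the WRN rank over day 0 was 926 of 19077 genes. The treated rank rests on the 16, 10, 3 and 1 counts above, and whether the drug changed it was not tested. BLM was at -2.03 against day 0, so that 2 of 5 RecQ genes were called lower and 0 higher, against 16.9% and 9.61% of all genes. Treated and untreated RKO libraries share that day 0 library, so these values do not add to the untreated ones as a separate measurement.

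**Figure D4:**
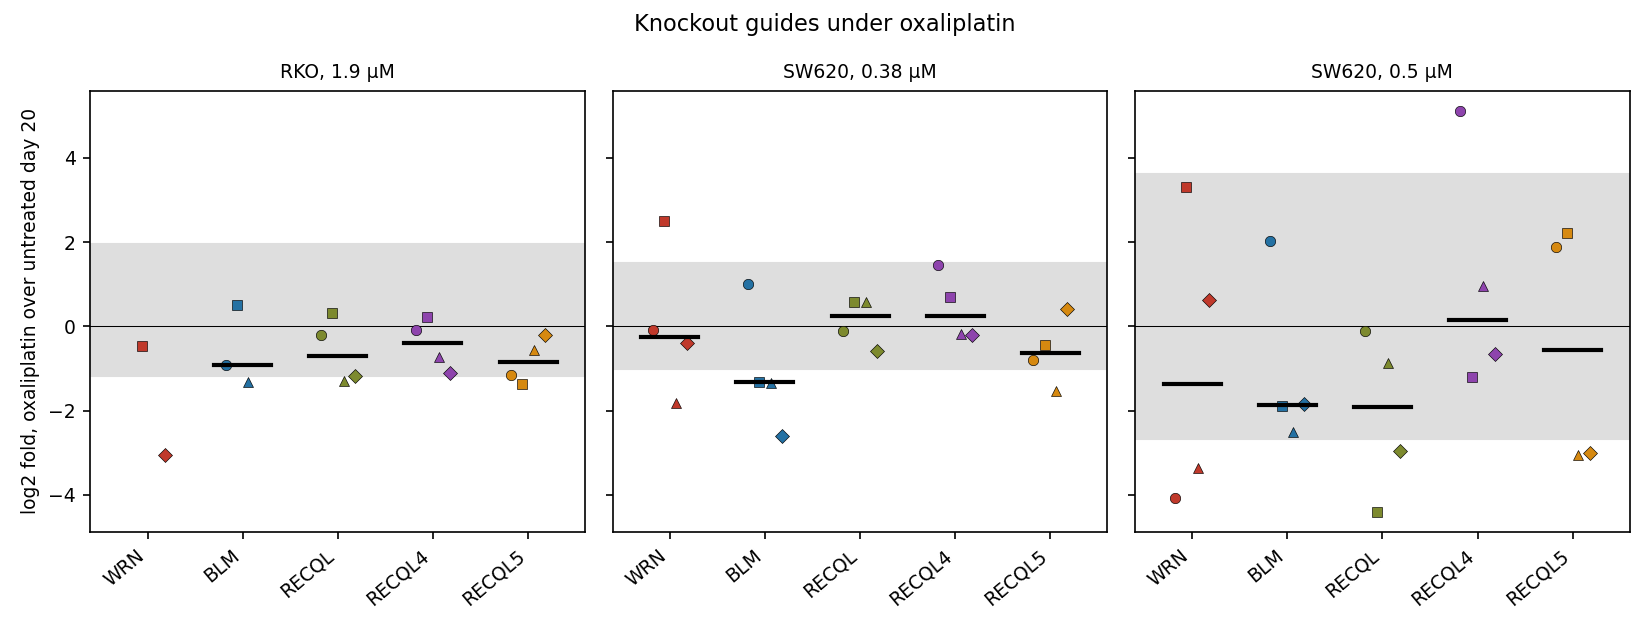
Log2 folds of single knockout guides (symbols), oxaliplatin over untreated day 20, with gene medians (black bars) and the central 90% of non-targeting guides (grey), in RKO at 1.9 µM and in SW620 at 0.38 and 0.5 µM. The grey band spans -1.18 to 1.96, -1.0 to 1.5 and -2.68 to 3.63 in that order. At 0.38 µM 3 BLM guides lie between -2.61 and -1.32 and the other is at 1.00.

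The other RecQ genes were not called in treated RKO. BLM was at -0.92 from 3 guides, RECQL5 at -0.86, RECQL at -0.70 and RECQL4 at -0.41, so that 0 of the 4 genes with a median were called. The fourth BLM guide, left out by the count filter, went from 7 counts to 14, a ratio of 5.10 after scaling (1.93 to 14.9, counting error only), and without the filter BLM was at -0.21. Of all 18441 tested genes 7.9% were called lower and 11.3% higher. All 4 guides of RECQL5 were below 0, from -1.38 to -0.20, and 3 of the 4 lay inside the non-targeting band of -1.18 to 1.96. With counts scaled by library totals instead, all 4 genes were called lower, but so were 64.4% of all genes.

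In SW620, BLM was the RecQ gene called lower at both doses. Its untreated counts of 846, 218, 507 and 467 stood against 1618, 80, 188 and 68 at 0.38 µM. Guides 2 to 4 were lower and guide 1 was higher, with folds of 1.00, -1.32, -1.34 and -2.61 and a median of -1.33. At this dose 4.53% of genes were lower than BLM. At 0.5 µM the counts were 1071, 17, 26 and 39, the folds 2.02, -1.88, -2.51 and -1.85, and the median -1.86. Guide 1 again stood against the other 3, and it was also the BLM guide with the least loss over day 0 in untreated RKO. The summed BLM guides, most of whose treated counts came from guide 1, were not lower at either dose. They were at 1.00 times untreated at 0.38 µM (0.943 to 1.07) and 1.82 times at 0.5 µM (1.69 to 1.96, counting error only). At 0.5 µM 15.8% of genes were lower than BLM and its guides lay inside the non-targeting band of -2.68 to 3.63. Both doses share the untreated library, so the values are given side by side and not as separate support.

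WRN guides scattered widely in treated SW620. At 0.38 µM their counts were 713, 2347, 109 and 591, with folds of -0.09, 2.50, -1.82 and -0.40 and a median of -0.25. At 0.5 µM the counts were 13, 1341, 11 and 395, with folds of -4.07, 3.31, -3.35 and 0.63 and a median of -1.36. Of the 4 guides at 0.5 µM 2 were far below and 2 above untreated, and the median without the guide of the largest fold was 0.63, so WRN has no settled direction at this dose.

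RECQL, RECQL4 and RECQL5 were not called at 0.38 µM, with medians of 0.24, 0.26 and -0.63. At 0.5 µM RECQL was called lower at -1.92 with all 4 guides below 0 (-4.40, -2.97, -0.86 and -0.11), and at -0.86 without the guide of the largest fold. RECQL4 was at 0.15, although its guide 1 rose from 1211 to 13158 counts, a log2 fold of 5.12 that no other guide of the gene shared. RECQL5 was at -0.56, with guides at 1.89, 2.21, -3.06 and -3.0. The RecQ genes called lower numbered 1 of 5 at 0.38 µM, against 8.57% of all genes, and 3 of 5 at 0.5 µM, against 30.4%. None was called higher, against 4.98% and 25.1% of all genes. At 0.5 µM more genes passed the threshold in one direction or the other than did not, and the count of 3 of 5 is read against that.

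Related genes under drug in the knockout screens varied by line. In RKO, genes depleted without drug could pass the count filter mainly through the treated library, and 13 of 77 ribosomal protein genes were tested there. The folds of TOP3A, RMI1, RAD50 and MRE11A over untreated are therefore not given. EXO1 had -1.25. In SW620 at 0.38 µM RMI1 was at -1.40, EXO1 at -2.08, WRNIP1 at -1.56 and FANCM at -1.68. In that comparison 1 of 3 BLM complex genes, 4 of 8 resection and flap genes and 2 of 13 other helicases were called lower, against 8.57% of all genes. Structure-specific nucleases had 2 of 7 called lower and 1 higher there, against 8.57% and 4.98%. In treated RKO the nucleases had 3 of 7 called lower and 2 higher, against 7.9% and 11.3% of all genes. Mismatch repair genes had 0 of 7 called at 0.38 µM in SW620. In RKO 1 of 7 was called lower, MLH3 at -1.20, and 0 higher, against 7.9% and 11.3% of all genes. At 0.5 µM in SW620 mismatch repair had 5 of 7 called lower and 1 higher, resection and flap enzymes 6 of 8 lower and 0 higher, and other helicases 8 of 13 lower and 1 higher. The BLM complex had 2 of 3 lower and 0 higher there, and structure-specific nucleases 2 of 7 lower and 0 higher. The background at that dose was 30.4% lower and 25.1% higher.

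In the activation screens WRN was read from 2 guides, since the third had at most 2 counts in any library of either line. Without drug 0 of 4 RecQ genes were called in either line, where 0.724% of all genes were called lower in RKO and 0.389% in SW620. BLM was the lowest, at -0.78 in RKO with all 3 guides below 0 (-1.15, -0.34 and -0.78). Its counts went from 1151, 1000 and 998 at day 0 to 282, 437 and 319, and 1.69% of genes were lower. In SW620 BLM was at -0.07. WRN was at -0.42 in RKO and 0.07 in SW620, RECQL4 at 0.04 and 0.29, and RECQL5 at 0.01 and -0.05. Guide numbers do not match between the activation tables of RKO and SW620, so no guide-wise line difference was taken there.

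**Figure D5:**
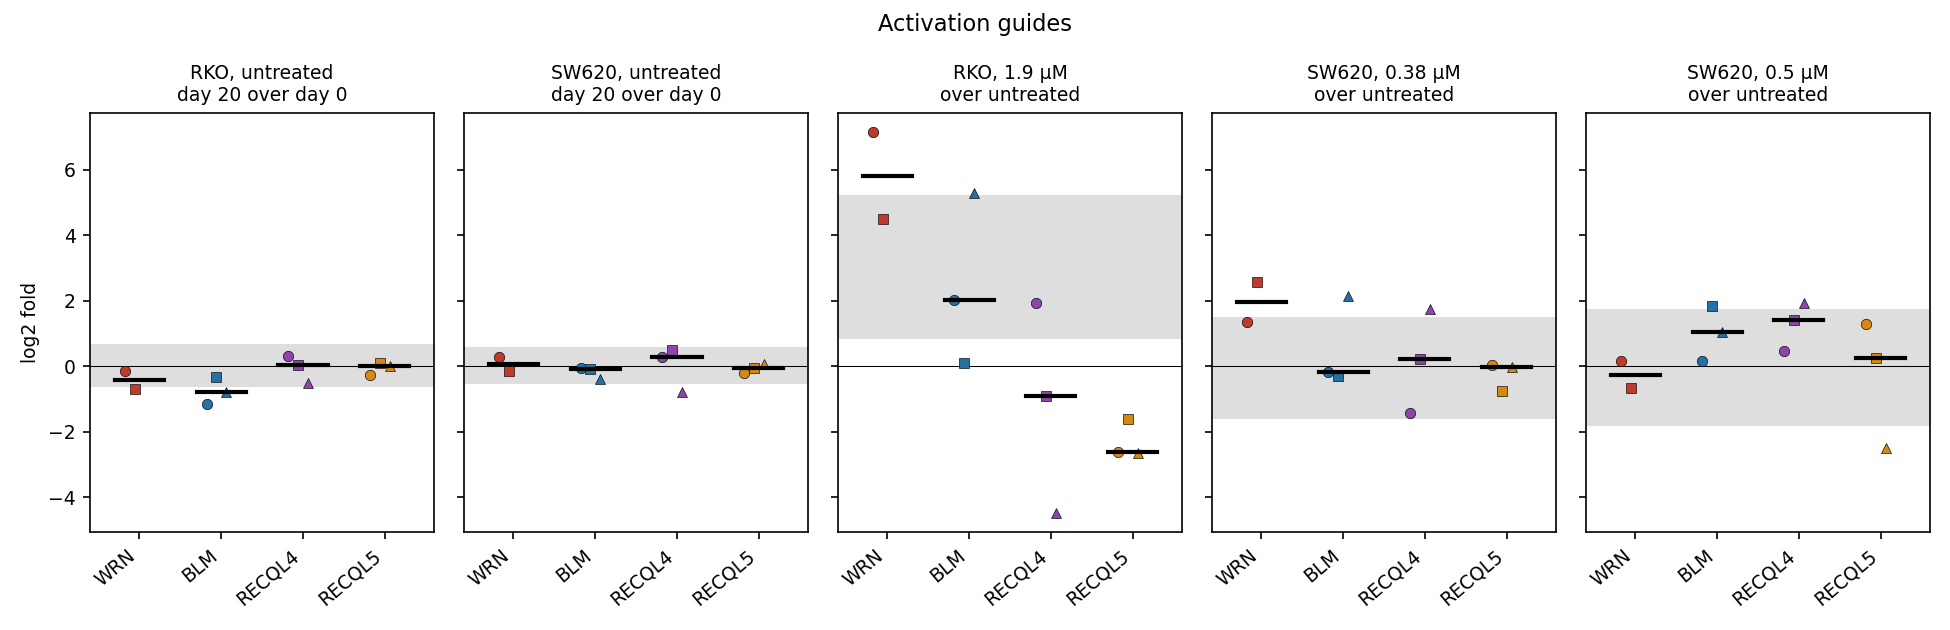
Log2 folds of single activation guides (symbols) with gene medians (black bars) and the central 90% of non-targeting guides (grey) in the 5 activation comparisons. In treated RKO the band itself lies between 0.88 and 5.21, and WRN guides are at 7.16 and 4.49. In SW620 at 0.38 µM WRN guides are at 1.34 and 2.57.

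Under 1.9 µM oxaliplatin both WRN activation guides that were read stood higher than without drug in RKO. They went from 866 and 273 counts without drug to 8768 and 446 with it, in a treated library with a median of 21 counts per guide. Of all guides in the treated library 99.3% were lower than guide 1 and 86.6% lower than guide 2. The log2 folds were 7.16 and 4.49, the median 5.82, and WRN ranked 62 from the highest of 18763 genes. The size of this value depends on the scaling: it was 3.63 when the non-targeting guides were set to 0, 2.24 with library totals and 6.61 with the authors' deposited normalized table. With the median ratio, non-targeting guides had a median of 2.25 and a central 90% from 0.88 to 5.21, which holds WRN guide 2 and not guide 1. BLM was at 2.03 with guides at 2.03, 0.10 and 5.28, and it was at -0.13 with the non-targeting guides set to 0, -1.49 with library totals and 2.81 with the authors' deposited normalized table. RECQL4 was at -0.90 with guides from -4.47 to 1.94. RECQL5 was called lower at -2.62, with counts of 578, 765 and 942 without drug and 6, 17 and 10 with it. In this comparison 2 of 4 RecQ genes were called higher and 1 lower, against 25.9% and 47.2% of all genes. The calls of single genes are to be read against those shares.

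In SW620 at 0.38 µM WRN was again high. Its guides went from 124 and 47 counts in the shallow untreated library to 1779 and 1614, log2 folds of 1.34 and 2.57 with a median of 1.96. WRN ranked 111 from the highest of 18767 genes, and the central 90% of non-targeting guides ran from -1.58 to 1.48. BLM, RECQL4 and RECQL5 were at -0.17, 0.24 and -0.01, so that 1 of 4 RecQ genes was called higher, against 8.8% of all genes, and 0 lower, against 10.8%. At 0.5 µM the WRN guides had 313 and 65 counts, folds of 0.16 and -0.67 and a median of -0.26. The rise of WRN at 0.38 µM was thus not seen at the higher dose, in libraries that share their untreated control. At 0.5 µM RECQL4 was called higher at 1.41 (guides 0.48, 1.41 and 1.95) and BLM at 1.05 (0.17, 1.86 and 1.05), while RECQL5 was at 0.26. That is 2 of 4 called higher, against 12.4% of all genes, and 0 lower, against 15.2%. Every guide of RECQL4 and BLM at 0.5 µM lay inside the non-targeting band of -1.78 to 1.72 except guide 3 of RECQL4 and guide 2 of BLM.

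SLC43A1, the amino acid transporter gene in the title of the series, had knockout medians of -0.15 in RKO and 0.40 in SW620 without drug, a line difference of -0.57.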

How the data were processed

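Guide abundance was measured by sequencing guide cassettes amplified from genomic DNA. The authors deposited raw counts per guide for each screen, and a second table of normalized signal whose columns are the counts times a constant. Processing involved MAGeCK 0.5.7 and cutadapt 4.0, per the submitters' processing notes. What each did, and its settings, are not given in the sources used here. All columns were matched to samples by name (0 unmatched).

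Scaling used median-ratio size factors. Log2 folds used a pseudocount of 5, guides with a mean scaled count of 20 or more in the pair, and at least 3 knockout or 2 activation guides per gene, over the whole tables (Python 3.11.15, pandas 2.3.3, scipy 1.17.1). The procedure was tested on simulated counts that held counting error only, with the same effect for every guide of a gene. That test does not cover the scatter between guides of a gene seen in the treated libraries. With 1 library per condition there is no test, and guides are not replicates. Intervals are exact (Clopper-Pearson, 95%) and, like the floor of 3 counts, cover counting error only, since PCR reads carry no molecular identifiers. Distances to WRN used the knockout folds over day 0. Alternatives were scaling by totals or non-targeting guides, pseudocounts of 1 and 20, no filter, the mean over guides, leaving out the guide with the largest fold, the deposited normalized signal, day 0 as control, and SW620 folds scaled to ribosomal proteins.

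The members and lists were chosen with earlier results of these data known. Named genes are the 5 members, in each related list the called genes (at most 4 by size, otherwise the 2 with the largest absolute value without drug), the 8 genes nearest WRN, BRAF, CTNNB1 and SLC43A1. Some genes that the rule names are not reported here. RMI2, WRNIP1 and EXO1 were added after their values were seen. Symbols are those of the files, chromosomes those of RefSeq. Guide sequences were not used here, so whether guides of a gene, such as CBWD1 or DDX11, also cut elsewhere was not checked.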

Additional observations from a re-analysis of the deposited data

Results flagged for a closer look

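In 6 results the median of a gene's guides had opposite signs in the 2 lines and differed by over 1, and none of these differences was tested, since each condition has 1 library. Without drug the WRN knockout differed by -2.91 between RKO (-2.78) and SW620 (0.16). The other cases lie in the activation screens under oxaliplatin, where doses differ between the lines and the treated RKO library has non-targeting guides at a median of 2.25. Against SW620 at 0.38 µM, BLM differed by 2.20 (2.03 in RKO, -0.17 in SW620) and RECQL4 by -1.13 (-0.90 and 0.24). Against SW620 at 0.5 µM, WRN differed by 6.08 (5.82 and -0.26), RECQL4 by -2.30 (-0.90 and 1.41) and RECQL5 by -2.88 (-2.62 and 0.26). The BLM value in RKO turned sign with the scaling, at -0.13 with non-targeting guides set to 0 and -1.49 with library totals, and was 2.81 with the authors' deposited normalized table.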

How the results depend on the processing

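No paired analysis was possible because each condition has 1 library and no replicate numbers are shared. Of 423 alternative values of single RecQ genes, 382 stayed the same, 9 moved and 4 reversed. Another 12 were no longer past the threshold, and 16 newly passed it in their own direction. A called value counted as the same if it was still called in its direction. An uncalled value counted as the same if it stayed uncalled and within the standard deviation of its guides, whatever its sign. Only called values could count as reversed, so sign changes of uncalled values are not among the 4. WRN in treated RKO knockout has no value to vary. WRN in untreated RKO knockout stayed called lower in all 8 alternatives (-3.26 to -2.17), and its line difference in all 9 (-3.64 to -2.30). The ribosomal scaling, which gave -3.64, lowered that difference by its construction, since the WRN median in SW620 was above 0. In untreated SW620 WRN ranged from -0.10, with non-targeting guides set to 0, to 0.17. The reversed values were the BLM line difference with ribosomal scaling (0.073), WRN in SW620 knockout at 0.5 µM without its largest guide (0.63), and BLM in treated RKO activation with totals (-1.49) or non-targeting guides (-0.13). Of 95 alternative counts of RecQ genes called, 12 moved by over 1.5 times. Without the guide of the largest fold, the count in RKO knockout without drug and in the line difference went from 2 to 1, both by the loss of BLM, and a pseudocount of 20 also left 1 in the line difference. In treated RKO knockout 0 called became 4 with totals, 2 with non-targeting guides and 2 with day 0 as control. With totals, SW620 knockout went from 1 to 2 at 0.38 µM and from 3 to 5 at 0.5 µM. In SW620 activation at 0.5 µM 2 became 0 with totals, 0 without the largest guide, 1 with a pseudocount of 20 and 1 with day 0 as control. Totals moved the median of all genes to -1.27 in treated RKO knockout, -2.12 in SW620 knockout at 0.5 µM and -4.14 in treated RKO activation. Genes called lower and higher were then 64.4% and 1.14%, 76.4% and 1.28%, and 90.2% and 1.41%. With non-targeting guides set to 0 those medians were -0.20, -1.05 and -2.90, and the shares 13.4% and 7.37%, 51.2% and 8.43%, and 76.0% and 5.97%. Totals gave 18.7% and 1.05% in SW620 knockout at 0.38 µM, 20.0% and 3.53% in SW620 activation at 0.38 µM, and 29.9% and 3.86% at 0.5 µM. In untreated RKO knockout non-targeting scaling moved the median of all genes to -0.41. The cause of these changes was not tested beyond the alternatives' own construction. Depth limits WRN in treated RKO knockout, where its guides held 30 counts in all.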
